A study of Mus musculus with 5 samples.

Results

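Sarcoma cells with transcripts of the proliferation genes Mki67 and Top2a were compared with sarcoma cells in which none were detected. The comparison was made within each of 4 mouse epithelioid sarcomas profiled by droplet single-cell RNA sequencing. Sarcoma cells were taken as barcodes with at least 500 detected genes, at most 10% mitochondrial UMIs (unique molecular identifiers, each counting 1 captured RNA molecule), at least 2 UMIs of Gchfr, 0 UMIs of Smarcb1, fewer than 2 UMIs of Ddah1, Wisp1, C1qtnf7 and Fbn2 together, and fewer than 5 UMIs of Rgs5 per 10000. This gave 18084 cells of the 39930 barcodes in the series, 4980, 7316, 2715 and 3073 in sarcomas 1 to 4. Cells holding 2 or more UMIs of the proliferation genes Mki67 and Top2a are called cycling here (2946 cells: 1113, 1364, 215 and 254), and cells holding 0 are called non-cycling (12471 cells: 3187, 4543, 2265 and 2476). The 2667 cells with exactly 1 such UMI belong to neither class. The classes were thus chosen by measured values of these same libraries, and the 9 genes that chose the cells and classes are described but not tested.

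All mice were C57BL/6J, received 2.5 mg tamoxifen in 100 µL sunflower oil on each of 5 days at 8 weeks of age, and had a washout of 10 days, per the labels. The 4 sarcomas, labelled endpoint and taken from the shoulder, head, head and ear, and hip, had the genotype Hic1CreERT2/CreERT2;Rosa26LSLtdTomato/LSLtdTomato;Smarcb1FL/FL. In these animals tamoxifen activates a Cre recombinase expressed from both copies of Hic1, a gene of mesenchymal progenitors, which switches on the red reporter tdTomato and deletes Smarcb1, whose protein is part of the core of the chromatin remodeller SWI/SNF. Another library held tdTomato-positive mesenchymal progenitors of hindlimb muscle, labelled quiescent, from Hic1CreERT2/CreERT2;Rosa26LSLtdTomato/+ mice, which share the Cre driver and the tamoxifen course but keep Smarcb1. It served only as background for the share of cycling cells. Cells were sorted before loading. Whether each sarcoma grew in a different mouse is not stated in the labels. The p-values then measure how the difference between classes varies over these 4 samples alone, and that variation may be technical.

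As background, a dividing cell passes through a growth phase (G1), DNA synthesis (S phase), a second growth phase (G2) and mitosis. The E2F transcription factors switch on the genes of DNA replication at the start of S phase. The MuvB complex, with B-Myb and FoxM1, switches on the mitotic genes later, and in arrested cells the related DREAM complex holds both sets of genes off. Mki67 encodes Ki-67, which coats mitotic chromosomes, and Top2a encodes the topoisomerase that disentangles replicated DNA, so transcripts of both are most abundant from S phase to mitosis. Cells early in G1 can lack both.

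The promoters of mitotic genes are known for a cell cycle homology region (CHR), which MuvB complexes bind, placed near CCAAT boxes, and those of replication genes for E2F sites. The sequences of Cdc20, which activates the ubiquitin ligase of mitotic exit, of Cdk1, the kinase that drives mitosis, and of Mcm6, a subunit of the replicative helicase, are shown because they display these elements in genes of the rising set. Each is the 120 bases before the RefSeq start site, from 5′ to 3′ along the gene. Capitals mark every match on either strand to the CHR (letters TTTGAA, also TTCGAA), to the CCAAT box (its 5 letters) and to the E2F motif, searched as TTTCCCGC and as TTTGGCGC, with the further forms TTTCGCGC and, last, TTTGCCGC.
Cdc20 (GRCm38.p6, chr4:118437344-118437463, minus strand): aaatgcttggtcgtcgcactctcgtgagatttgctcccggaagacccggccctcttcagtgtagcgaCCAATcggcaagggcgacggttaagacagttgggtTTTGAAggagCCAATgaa
Cdk1 (GRCm38.p6, chr10:69352913-69353032, minus strand): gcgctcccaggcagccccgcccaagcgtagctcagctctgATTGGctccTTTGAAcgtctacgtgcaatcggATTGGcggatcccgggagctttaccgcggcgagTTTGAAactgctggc
Mcm6 (GRCm38.p6, chr1:128359706-128359825, minus strand): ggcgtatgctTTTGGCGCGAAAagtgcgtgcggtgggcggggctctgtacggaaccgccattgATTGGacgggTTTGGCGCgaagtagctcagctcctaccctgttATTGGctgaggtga
In Cdc20 the CHR lay from base -18 to base -13 relative to the start site. Cdk1 carried CHR letters at -71 to -66 and at -15 to -10. Mcm6 held no CHR in its window and 3 E2F motifs, of which a pair on opposite strands overlap (from -110 to -103 and from -106 to -99).

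Cycling cells made up 22.3%, 18.6%, 7.92% and 8.27% of the sarcoma cells of sarcomas 1 to 4, a mean of 14.3% ± 7.32 (SD, n = 4). The share rests on the genes of the rule and on depth, so it is a description with no test. At an equal depth of 10000 UMIs, reached by random thinning and without the cells of lower depth, it was 15.9% (exact binomial 95% interval 14.9 to 17.0), 12.3% (11.5 to 13.2), 4.64% (3.85 to 5.53) and 4.15% (3.45 to 4.93). Sarcomas 1 and 2 therefore stood above sarcomas 3 and 4 at equal depth, with intervals that do not overlap. These intervals cover counting error only. Among the other kept cells of the sarcoma libraries that held a Smarcb1 UMI, the share at the same depth was 8.88% (23 of 259 cells), 7.59% (22 of 290), 1.57% (24 of 1530) and 1.82%. The last value is 1 of 55 cells (interval 0.046 to 9.72). In muscle it was 0.398% (9 of 2259 cells, interval 0.182 to 0.755), where median depth before thinning was 11993 UMIs against 23597 to 33005 in the sarcoma cells. The other kept cells were all those with a Smarcb1 UMI, whatever their Gchfr. Before thinning they were 287, 332, 1655 and 63 of 7433, 8206, 6949 and 6824 kept cells in sarcomas 1 to 4. Kept cells in neither group were not counted.

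**Figure D1:**
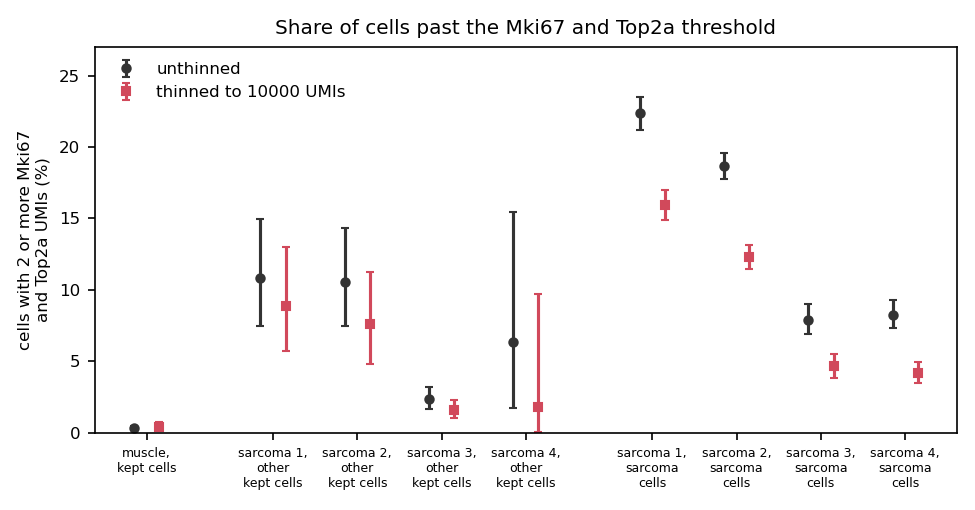
The percentage of cells with 2 or more UMIs of Mki67 and Top2a (vertical axis) is plotted for muscle, for other kept cells with a Smarcb1 UMI and for sarcoma cells of each library, unthinned (circles) and thinned to 10000 UMIs (squares), with exact binomial 95% intervals as bars. Sarcoma cells of sarcomas 1 and 2 sit at 15.9% and 12.3% after thinning, those of sarcomas 3 and 4 at 4.64% and 4.15%, and muscle at 0.398%.

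The cycling cells were also the deeper cells. Before thinning their median was 33194, 35844, 36043 and 43314 UMIs in sarcomas 1 to 4, against 24003, 23004, 21465 and 30344 in non-cycling cells. All comparisons of genes therefore used cells of at least 10000 UMIs thinned to that number (2873 cycling and 10906 non-cycling cells). Classes were set before thinning, and the thinned counts were summed per library and class. Levels below are CPM, the UMIs of a gene in each 1000000 UMIs of that sum. The number of cells decides how well a sum is measured, and sarcomas 3 and 4 had only 211 and 250 cycling cells at this depth against 1100 and 1312 in sarcomas 1 and 2. Median mitochondrial content was between 2.31% and 3.31% in both classes of all 4 libraries. Because the class came from counts before thinning, depth still bore on which class a cell entered. With the class set after thinning, 757, 733, 118 and 121 cells of sarcomas 1 to 4 were cycling. In that setting 1046 genes rose and 982 fell.

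Mki67 (chromosome 7, 135689784 to 135716361, mm10) stood at 145, 160, 140 and 133 CPM in the cycling cells of sarcomas 1 to 4, and Top2a (chromosome 11, 98992943 to 99024189) at 311, 223, 238 and 276, both at 0 in non-cycling cells by construction. When cells were classed by Mki67 alone, Top2a was at 371, 276, 333 and 470.0 CPM in cells past the threshold and at 7.33, 8.33, 3.94 and 4.91 in cells without Mki67. When cells were classed by Top2a alone, Mki67 was at 156, 192, 154 and 140.5 CPM in cells past the threshold and at 8.00, 13.3, 3.88 and 1.37 in cells without Top2a. In every sarcoma each gene was thus far higher in the cells marked by the other, which are not independent of the rule, so no test is given. Gchfr, the feedback regulator of GTP cyclohydrolase by which sarcoma cells were found, was at 832 CPM on average in cycling and 826 in non-cycling cells. The name non-cycling means only that no Mki67 or Top2a UMI was detected. After thinning, Cdk1 was detected in 12.5% to 38.1% of non-cycling cells. The replication genes Mcm6 and Pcna were detected in 18.2% to 24.5% and 16.2% to 26.9%, and the mitotic gene Plk1 in 0.129% to 0.78%. Whether such cells were dividing was not tested.

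Across all genes, 946 of 12468 tested genes rose in cycling cells (7.59%) and 709 fell (5.69%) by edgeR's quasi-likelihood test with the library as a block and Benjamini-Hochberg adjustment at 0.05. The rises were much larger than the falls, although the size of a rise rests on few UMIs where a gene was nearly absent from non-cycling cells. Of the genes that rose, 432 did so by more than 1 on the log2 scale and 233 by more than 2, whereas 118 fell by more than 1 and 12 by more than 2. In all 4 libraries 928 of the rises and 686 of the falls had the same direction. Without sarcoma 1 the counts were 509 and 136, and without sarcoma 2 they were 612 and 271. Scaling to library size in place of TMM gave 1166 rises and 452 falls, so that 72.1% of calls were rises in place of 57.2%. With only 4 pairs, an exact permutation test of a single value cannot go below p = 0.125, so single genes rest on the fit across all genes.

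**Figure D2:**
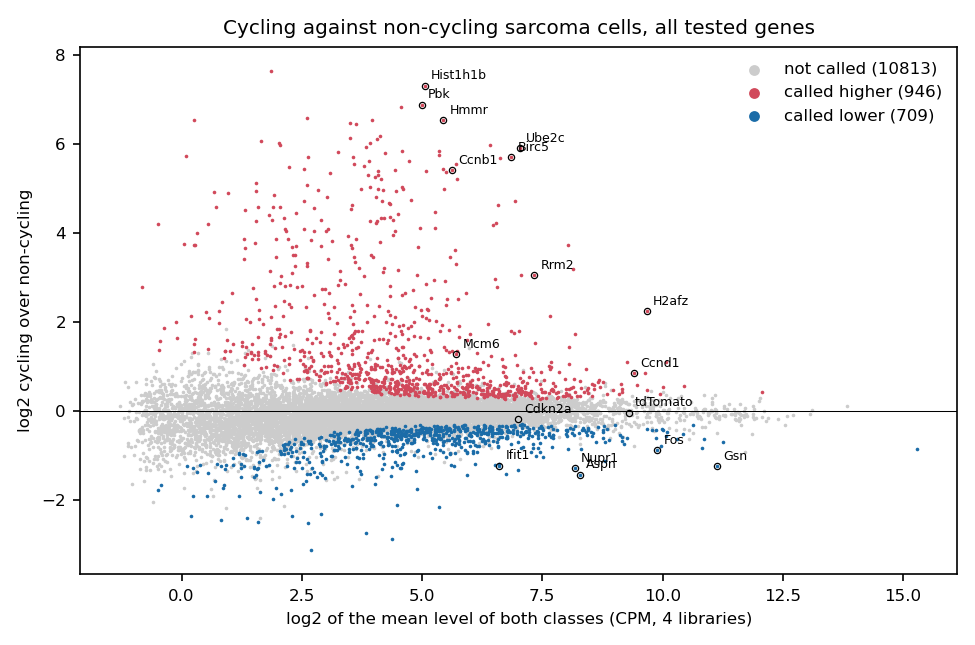
For each of the 12468 tested genes, the log2 difference between cycling and non-cycling sarcoma cells (vertical axis, fitted over 4 libraries) is plotted against the log2 of its mean level in CPM (horizontal axis), with genes called higher in red, called lower in blue and not called in grey. The 946 rises reach past 7 on the log2 scale, as for Hist1h1b, while most of the 709 falls lie within 1 of 0.

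Genes of DNA replication rose together. Of the 45 tested genes that load and move the replicative helicase and copy DNA, 44 rose and none fell, with a median log2 difference of 1.78 against -0.06 over all tested genes. The exception was Cdt1, which delivers the helicase to origins (log2 1.07 ± 0.34, SE, edgeR adjusted p = 0.0752). Mcm7, a helicase subunit (chromosome 5, 138164583 to 138172422, mm10), was at 29.8, 22.0, 36.8 and 35.9 CPM in the non-cycling cells of sarcomas 1 to 4 and at 119, 67.2, 146 and 205 in cycling cells. No library overlapped between the classes, and the difference was 1.96 ± 0.12 on the log2 scale (SE, n = 4, edgeR adjusted p = 1.96e-05). Mcm10 and Cdc6, which start and license replication, rose by 4.34 ± 0.43 and 4.09 ± 0.24, with Cdc6 at or below 0.998 CPM in non-cycling cells of every sarcoma and between 8.69 and 13.7 in cycling cells. Tipin, a protein of the fork protection complex, rose by 0.88 ± 0.11 on the log2 scale (edgeR adjusted p = 0.00114).

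Of 20 tested genes of nucleotide supply, 17 rose and none fell (median 0.94). Rrm2, the subunit that limits the making of deoxynucleotides by ribonucleotide reductase (chromosome 12, 24708241 to 24714146), went from 22.4 to 200 CPM in sarcoma 1, from 9.18 to 135 in sarcoma 2, from 20.2 to 231 in sarcoma 3 and from 139 to 530.0 in sarcoma 4. The non-cycling cells of sarcoma 4 thus held as much Rrm2 as the cycling cells of sarcoma 2. Its paired difference was 3.05 ± 0.32 on the log2 scale (SE, edgeR adjusted p = 0.000502). Thymidine kinase Tk1 rose by 3.68 ± 0.10, from 4.21 ± 1.98 to 56.1 ± 24.9 CPM (SD, n = 4, edgeR adjusted p = 1.01e-06). Rrm1, the larger subunit of the reductase, rose by 2.54 ± 0.10 (edgeR adjusted p = 2.48e-06). Dut, which removes dUTP, went from 361 to 395 CPM in sarcoma 2 and by more in the other 3 sarcomas, and its rise of 0.99 (edgeR adjusted p = 0.0202) was lost without sarcoma 1 or sarcoma 4 (edgeR adjusted p = 0.0958 and 0.0622).

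Replication-dependent histone genes moved in both directions. Of 18 listed replication-dependent histone genes 12 were tested, and 7 rose while 3 fell. Hist1h1b, a linker histone (chromosome 13, 21779883 to 21780625), had the largest rise of all genes named by the rule: 0.333, 0.26, 0.428 and 0.60 CPM in non-cycling cells of sarcomas 1 to 4 against 107, 55.3, 17.1 and 86.4 in cycling cells, or 7.31 ± 0.30 on the log2 scale (edgeR adjusted p = 2.48e-06). Sarcoma 3 was the lowest of the 4 in cycling cells. Hist1h2ap rose by 4.42 ± 0.29, with cycling levels from 6.4 CPM in sarcoma 2 to 102 in sarcoma 4. The 3 that fell were Hist2h3c1 (-1.42), Hist1h2bc (-0.84) and Hist1h1c (-0.71, edgeR adjusted p = 0.0471). Hist1h2bc and Hist1h1c are known to be transcribed outside S phase as well, with polyadenylated transcripts. The call of Hist1h1c was lost under 13 of 24 alternatives, among them leaving out sarcoma 1, 2 or 4 and library size scaling. Without sarcoma 1 no gene of the list fell, without sarcoma 2 only 1 did, and without sarcoma 3 the number of rises was 11. The library kit captures polyadenylated RNA, and most replication-dependent histone transcripts lack a poly(A) tail.

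Among histone variants, histone chaperones and chromatin proteins, 18 of 23 rose and none fell (median 1.31). H2afz, the histone variant H2A.Z (chromosome 3, 137864487 to 137866922), was at 280.4, 237, 369.5 and 219 CPM in non-cycling cells and at 1404, 1027, 1661 and 1325 in cycling cells, a rise of 2.24 ± 0.09 on the log2 scale (edgeR adjusted p = 2.48e-06). The DNA-bending protein genes Hmgb2 and Hmgb1 rose by 3.19 ± 0.15 and 0.57 ± 0.08. Asf1b, a histone chaperone of replication, went from 2.39 ± 0.674 to 41.2 ± 10.6 CPM (SD, n = 4).

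Of 29 tested genes of homologous recombination and Fanconi repair, which mend stalled and broken replication forks, 24 rose and none fell (median 2.63). Fancd2, a central protein of the Fanconi pathway, went from 0.0969 ± 0.0829 to 8.04 ± 1.51 CPM (SD, n = 4). Topbp1, which activates the checkpoint kinase ATR, rose by 1.45 ± 0.10 and Usp1, which removes ubiquitin from Fancd2, by 0.95 ± 0.10 on the log2 scale (edgeR adjusted p = 4.15e-05 and 0.000361).

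The largest shifts belonged to the apparatus of mitosis. The median log2 difference was 5.12 over 16 mitotic kinases and entry factors (15 rose), 4.39 over 42 genes of the spindle, kinesins and cytokinesis (37 rose) and 4.08 over 36 genes of the kinetochore and centromere (34 rose), and none of these genes fell. Leaving out any 1 sarcoma left 14 or 15, 37, and 33 or 34 rises in these lists. Pbk, a mitotic protein kinase (chromosome 14, 65805837 to 65817822), was at 0.499, 0.664, 0.333 and 0.343 CPM in non-cycling cells of sarcomas 1 to 4 and at 63.6, 44.8, 50.2 and 94.8 in cycling cells (log2 6.88 ± 0.23, edgeR adjusted p = 1.07e-06). Melk, a kinase of the same phase, rose by 6.45 ± 0.23, and Tpx2, which activates Aurora A on the spindle, went from 2.16 ± 1.3 to 102 ± 14.8 CPM. Ensa and Arpp19 are close relatives that restrain the phosphatase PP2A in mitosis. Ensa was the kinase-list gene that was not called (log2 -0.02), and Arpp19 rose by 0.44 (edgeR adjusted p = 0.0159), a call lost without sarcoma 1 or sarcoma 2 (edgeR adjusted p = 0.0991 and 0.0742).

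At the kinetochore, Birc5, which encodes survivin of the chromosomal passenger complex (chromosome 11, 117849251 to 117855743), was at 6.82, 4.13, 3.71 and 2.36 CPM in non-cycling cells and at 283, 187, 215 and 225 in cycling cells. The classes did not overlap, and the rise was 5.71 ± 0.17 on the log2 scale (edgeR adjusted p = 1.01e-06). Cenpa, the centromeric histone, went from 9.81 ± 7.62 to 236 ± 20.5 CPM, Cenpf from 2.72 ± 2.12 to 168 ± 35.3, the kinesin gene Cenpe from 1.88 ± 0.793 to 84.1 ± 6.17, and Ndc80, which binds microtubules, from 0.454 ± 0.243 to 29.9 ± 6.56. Among spindle genes, Hmmr went from 0.924 ± 0.855 to 85.8 ± 15.4, Nusap1 from 1.63 ± 1.91 to 80.4 ± 17.7, and Kif11, which pushes spindle poles apart, from 1.12 ± 1.06 to 51.8 ± 5.06 CPM. Kif20a, a kinesin of cytokinesis, rose by 5.76 ± 0.39. Fam64a and Depdc1a, also of the spindle list, rose by 6.83 ± 0.19 and 6.54 ± 0.23. The tubulin genes Tubb5 and Tuba1a, named for the highest levels in the spindle list, moved little by comparison. Tubb5 rose by 1.10 ± 0.09, and Tuba1a differed by 0.26 ± 0.10 without passing (edgeR adjusted p = 0.118).

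Of 22 cyclins, cyclin-dependent kinases and their direct regulators, 16 rose and none fell (median 1.16). Ccnb1, the mitotic cyclin B1 (chromosome 13, 100778650 to 100786570), was at 1.66, 1.13, 1.71 and 5.19 CPM in non-cycling cells and at 104, 81.9, 102 and 95.6 in cycling cells (log2 5.41 ± 0.35, edgeR adjusted p = 2.38e-05). Its level in cycling cells differed little between the sarcomas, while the non-cycling cells of sarcoma 4 stood above the others. Cdk1 was at 21.5, 14.6, 25.8 and 58.5 CPM and rose to 237, 152, 232 and 318. The S-phase cyclin gene Ccna2 rose by 5.37 ± 0.16. Cdc25c, the phosphatase that activates Cdk1, rose by 5.45 ± 0.40.

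The D-type cyclins, which carry growth signals in G1, differed more between sarcomas than between classes. Ccnd1 (chromosome 7, 144929931 to 144939925) was at 925, 698, 392 and 20.2 CPM in non-cycling cells of sarcomas 1 to 4 and at 1227, 948, 1203 and 47.2 in cycling cells. The classes overlapped, and the paired rise of 0.85 ± 0.21 (edgeR adjusted p = 0.0335) was lost without sarcoma 2 or sarcoma 4 (edgeR adjusted p = 0.053 and 0.0848). Ccnd2 was highest in sarcoma 4, where Ccnd1 was lowest, at 115, 57.6, 244 and 801 CPM in non-cycling cells and at 62.3, 31.2, 141 and 1047 in cycling cells. It was lower in cycling cells of sarcomas 1 to 3 and higher in sarcoma 4, and did not pass the test (log2 -0.59 ± 0.18, edgeR adjusted p = 0.0649), although without sarcoma 4 it fell (log2 -0.86, adjusted p = 0.00107), when 2 cyclin genes of the list fell.

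**Figure D3:**
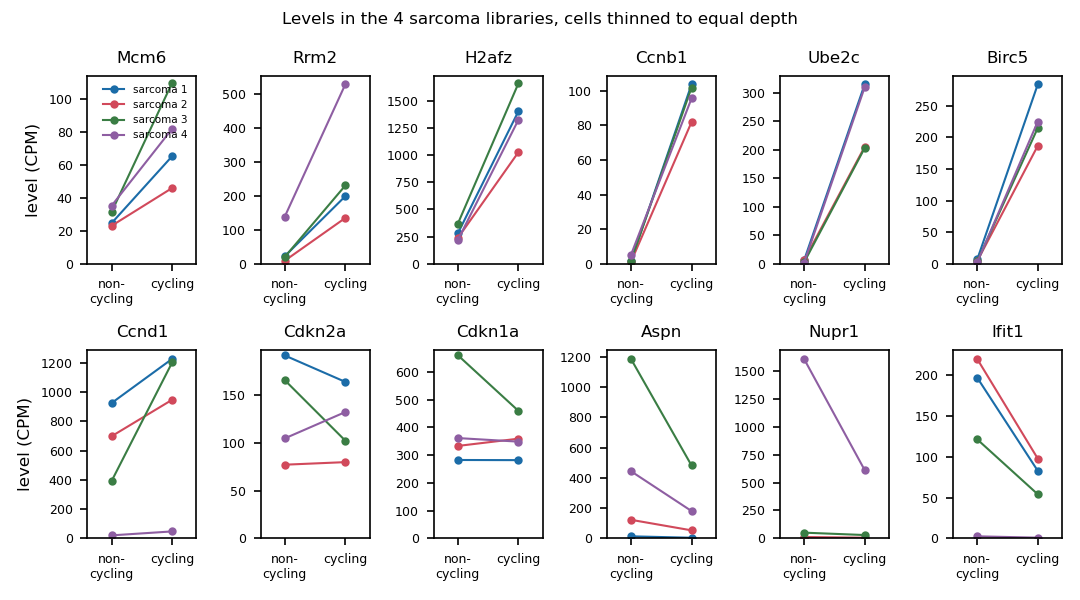
Levels in CPM (vertical axes, each starting at 0) of 12 genes in non-cycling and cycling cells, with 1 line per sarcoma joining the 2 sums of cells thinned to 10000 UMIs. Mcm6, Rrm2, H2afz, Ccnb1, Ube2c and Birc5 rise in all 4 sarcomas, Cdkn2a and Cdkn1a change in both directions, and Aspn, Nupr1 and Ifit1 go down in all 4.

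Among cell cycle inhibitors, neither Cdkn2a nor Cdkn1a passed the test. Cdkn2a, which encodes p16 and p19 (chromosome 4, 89274471 to 89294653), was at 192, 77.2, 166 and 105 CPM in non-cycling cells and at 164, 79.9, 102 and 132 in cycling cells. It was lower in cycling cells of sarcomas 1 and 3 and higher in sarcomas 2 and 4, with a difference of -0.19 ± 0.13 on the log2 scale (SE, edgeR adjusted p = 0.36). Cdkn1a, the p53 target p21, was at 282, 333, 659.7 and 361 CPM against 282, 359, 459 and 348 (log2 -0.17 ± 0.11, edgeR adjusted p = 0.313). These tests leave room for differences in either direction. Of the 27 tested inhibitors and p53 targets, 2 rose and 4 fell, beside 7.59% and 5.69% of all tested genes. Cdkn3, a phosphatase of mitosis in spite of its name, rose by 4.95 ± 0.24, and Cdkn2d, the inhibitor p19-INK4d, by 1.02. Btg2 and Btg1, antiproliferative genes, fell by 0.68 and 0.70, Bbc3 fell by 0.51, and Cdkn2b, which encodes p15, fell by 1.04 (edgeR adjusted p = 0.0285). Without sarcoma 1, Cdkn2b was lost (adjusted p = 0.155) and 2 genes of the list fell. Cdkn2b was also lost without sarcoma 3 (edgeR adjusted p = 0.059), and Btg1 without sarcoma 2 (adjusted p = 0.06).

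Among the transcription factors of the cycle, 11 of 22 rose and 1 fell, and without sarcoma 1 or sarcoma 2 the rises numbered 6. Foxm1 went from 0.90 ± 0.383 to 22.0 ± 4.5 CPM (SD, n = 4) and Mybl2, which encodes B-Myb, from 0.357 ± 0.183 to 5.45 ± 1.23. The activator E2f1 moved far less: 22.4, 20.5, 26.1 and 42.0 CPM in non-cycling and 33.9, 26.1, 51.7 and 54.4 in cycling cells (log2 0.50 ± 0.14, edgeR adjusted p = 0.0497). That call was lost under 15 of 24 alternatives, among them leaving out sarcoma 1, 2 or 3. Rb1, the pocket protein that restrains E2F, and the repressor E2f6 gave -0.11 and -0.02 (edgeR adjusted p = 0.699 and 0.94). The gene that fell was Foxo1, a factor of quiescence (log2 -0.44), in a call lost when any 1 sarcoma was left out.

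At the close of mitosis, the anaphase-promoting complex marks cyclins and securin for destruction. Of 19 tested genes of this list 12 rose and 1 fell (median 0.45), and without sarcoma 1 the rises numbered 7. Ube2c, its ubiquitin-conjugating enzyme (chromosome 2, 164769898 to 164778822), was at 6.15, 6.21, 2.57 and 1.84 CPM in non-cycling cells and at 314, 205, 203 and 309 in cycling cells, a rise of 5.91 ± 0.32 on the log2 scale (edgeR adjusted p = 9.4e-06). Ube2s, which extends the ubiquitin chain, rose by 1.44 ± 0.08. The activator Cdc20 rose by 4.17, separase (Espl1) by 5.48 and the inhibitor Fbxo5 by 4.23. The core subunits Anapc1, Anapc5 and Cdc27 rose by 0.44, 0.45 and 0.34. Securin (Pttg1) was the gene that fell, at 64.3, 67.9, 163 and 68.5 CPM in non-cycling and 52.4, 62.3, 103 and 40.8 in cycling cells (log2 -0.49 ± 0.13, edgeR adjusted p = 0.0445), a call lost when any 1 sarcoma was left out. Pttg1 was singled out after its values were seen.

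Condensin and cohesin genes, which fold and hold together the copied chromosomes, rose in 13 of 19 cases with none falling (median 1.16). The condensin gene Smc2 rose by 2.96 ± 0.11 and Smc4 by 1.76 ± 0.16, from 54.0 ± 18.6 to 185 ± 33.0 CPM. Ncapg and the cohesin acetyltransferase gene Esco2 were below 1 CPM in non-cycling cells and rose by 5.62 ± 0.19 and 6.48 ± 0.27. In sarcomas 1 to 4 the non-cycling sums held 21, 15, 18 and 8 UMIs of Ncapg and 3, 12, 3 and 7 of Esco2. The size of these rises thus rests on few UMIs. Of 18 genes of the nuclear envelope and nuclear transport, 15 rose (median 1.03). Lmnb1, which encodes lamin B1, rose by 2.28 ± 0.23 (edgeR adjusted p = 0.000339), the transport genes Rangap1 and Ran rose by 2.05 ± 0.15 and 0.85 ± 0.13, and Lmna, which encodes lamin A, gave 0.30 ± 0.11 (edgeR adjusted p = 0.119).

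Outside all lists, the largest rises by the rule were 2810417H13Rik (5.69), which encodes the PCNA-associated factor, Cdca3 (5.22), an adaptor for the destruction of the mitosis inhibitor Wee1, Diaph3 (2.94), a nucleator of actin filaments, Hmgb3 (2.53), Lockd (2.27), a noncoding RNA gene next to the cell cycle inhibitor gene Cdkn1b, Atad2 (2.02), a bromodomain protein of replicating chromatin, Ube2t (1.83), a conjugating enzyme of the Fanconi pathway, and 2700094K13Rik (1.79). Each was higher in cycling cells of all 4 sarcomas. 2810417H13Rik was at 4.59, 3.87, 3.18 and 2.36 CPM in non-cycling cells and at 243, 136, 189 and 200 in cycling cells.

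**Figure D4:**
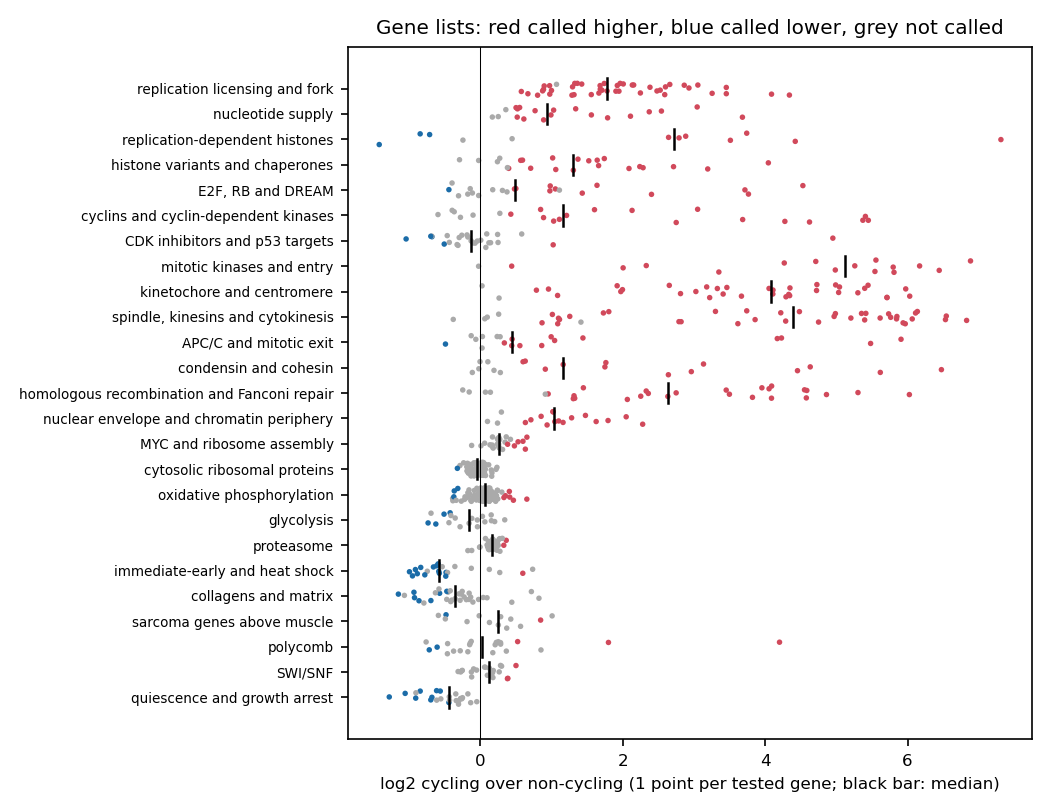
Each point is 1 tested gene of a list, placed by its log2 difference between cycling and non-cycling sarcoma cells (horizontal axis), red where it rose, blue where it fell and grey where it was not called, and the black bar is the median of the list. Lists of the mitotic apparatus have medians from 4.08 to 5.12, the replication list has 1.78, and lists of ribosomes, respiration, glycolysis and the proteasome lie near 0.

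Lists of growth and metabolism had medians between -0.16 and 0.26, and their counts stand beside shares of 7.59% rises and 5.69% falls over all tested genes. Of 82 tested ribosomal protein genes none rose and 1 fell, Rps27 (log2 -0.32), with a median of -0.04 and a range from -0.32 to 0.23. The list's median was -0.18, -0.09, 0.19 and -0.08 in sarcomas 1 to 4, so the direction differed between libraries, and Rps27 was not called when sarcoma 1, 2 or 4 was left out. Under library size scaling the median was 0.02, with 1 rise and no fall. Of 27 tested genes in the list of MYC and ribosome assembly 6 rose and none fell (median 0.26), and without sarcoma 1 there were 2. Npm1, a nucleolar chaperone, gave 0.35 ± 0.12 (edgeR adjusted p = 0.0891). Of 96 tested genes of oxidative phosphorylation, 6 rose and 3 fell (median 0.06), and without sarcoma 1 or sarcoma 2 the counts were 1 and 0, without sarcoma 3 they were 4 and 2, and without sarcoma 4 they were 6 and 1. Under library size scaling they were 10 and 0. The proteasome had 2 rises among 37 genes (median 0.16), none without sarcoma 1 or sarcoma 2, 1 without sarcoma 3 or sarcoma 4, and 8 under library size scaling. Of 19 glycolysis genes none rose and 4 fell, Eno2, Ldhb, Gpi1 and Hk1, by 0.42 to 0.73. Without sarcoma 1 none fell and without sarcoma 2 only 1 did. Pkm and Ldha, which encode the enzymes of the last steps, gave 0.15 ± 0.12 and -0.28 ± 0.09 (edgeR adjusted p = 0.435 and 0.0813).

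Falls were smaller, and they reached the lists of matrix, growth arrest and immediate-early genes. The counts of these lists, given below, stand beside 5.69% falls over all tested genes. Aspn, a small proteoglycan of connective tissue (chromosome 13, 49544443 to 49567565), was at 13.3, 122.5, 1187 and 444 CPM in non-cycling cells of sarcomas 1 to 4 and at 3.73, 52.7, 482 and 180 in cycling cells. It differed widely between sarcomas and was lower in cycling cells of each (log2 -1.43 ± 0.11, edgeR adjusted p = 7.63e-05). Ogn, a related proteoglycan, went from 605 ± 385 to 285 ± 166 CPM (log2 -1.13 ± 0.11, edgeR adjusted p = 0.000347). The lipid carrier Apod fell by 1.41 ± 0.21 and Sepp1, which encodes selenoprotein P, by 1.18 ± 0.20. The cycling sums of sarcomas 3 and 4 held only 16 and 4 UMIs of Apod. Gsn, which encodes the actin-severing protein gelsolin, went from 919 to 435, 2469 to 1679, 9542 to 1942 and 662 to 388 CPM in sarcomas 1 to 4. Sarcoma 3 was far above the others in non-cycling cells, and the fall of 1.23 ± 0.24 (edgeR adjusted p = 0.0135) was lost without sarcoma 1 (adjusted p = 0.0601).

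Interferon-induced Ifit1 was at 197, 220.1, 121 and 2.44 CPM in non-cycling and 82.8, 97.8, 54.0 and 0.8 in cycling cells, a fall of 1.22 ± 0.09 on the log2 scale (edgeR adjusted p = 6.82e-05) in spite of a near absence from sarcoma 4. H2-T23, a nonclassical antigen-presenting molecule, fell by 1.22 ± 0.15 (edgeR adjusted p = 0.00142). The stress-response gene Nupr1 was at 1608 CPM in non-cycling and 612 in cycling cells of sarcoma 4 and at most 50.8 in either class of the other sarcomas, and it was lower in cycling cells of all 4 (log2 -1.28 ± 0.18, edgeR adjusted p = 0.00268). Hmcn1, a matrix protein gene, fell by 1.44 and Plxdc2, a membrane protein gene, by 1.22. Hmcn1 was at 274 CPM in non-cycling and 175 in cycling cells of sarcoma 4, and at most 26.5 in either class of the other sarcomas. Its cycling sums held only 11, 17 and 3 UMIs in sarcomas 1 to 3. Tsc22d3, a glucocorticoid-induced gene, and F3, which encodes tissue factor, fell as well (edgeR adjusted p = 0.0175 and 0.0249). The cycling sums of sarcomas 3 and 4 held only 10 and 6 UMIs of F3, and that of sarcoma 1 held 2 of Nupr1. Without sarcoma 1 Hmcn1, Plxdc2 and F3 were no longer called (edgeR adjusted p = 0.0638, 0.0878 and 0.134), nor was Hmcn1 without sarcoma 2 (adjusted p = 0.0991), Plxdc2 without sarcoma 3 (adjusted p = 0.0654) or Tsc22d3 without sarcoma 4 (adjusted p = 0.0581).

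Of 24 genes of quiescence and growth arrest, 9 fell and none rose (median -0.44). They included Igf1 (-1.28), a growth factor, Gas6 (-1.06), a ligand of receptor kinases raised in arrested fibroblasts, Pik3ip1 (-0.91), an inhibitor of PI3 kinase, and Txnip (-0.84), which restrains glucose uptake. Gas1, a gene of growth arrest, gave -0.34 ± 0.16 (edgeR adjusted p = 0.183). The list of immediate-early and heat-shock genes had 22 tested members, of which 13 fell and 1 rose (median -0.58). Junb was at 1321, 1069, 1245 and 1309.5 CPM in non-cycling cells and at 700.1, 789, 618 and 918 in cycling cells, without overlap (log2 -0.78 ± 0.11, edgeR adjusted p = 0.00224). Fos fell by 0.88 ± 0.16, which was lost without sarcoma 1 (adjusted p = 0.0596). The heat-shock gene Hsp90aa1 was the one that rose, by 0.60 ± 0.11. Without sarcoma 1 the immediate-early list had 4 falls and the quiescence list 3, and without sarcoma 2 the quiescence list had 5.

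Of 33 collagen and matrix genes 7 fell and none rose (median -0.35), and without sarcoma 1 or sarcoma 2 there were 2 falls. Without sarcoma 2 or sarcoma 3 there was 1 rise. Mmp2, a gelatinase, fell by 1.15, and Postn, which encodes periostin, by 0.69 (edgeR adjusted p = 0.0344). Postn was at 1027, 44.4, 9723 and 11.5 CPM in non-cycling cells of sarcomas 1 to 4 and at 530.5, 20.9, 8118 and 11.2 in cycling cells, and its call was lost without sarcoma 1 or sarcoma 2 (adjusted p = 0.173 and 0.164). The fibrillar collagen gene Col1a2 was lower in cycling cells of sarcomas 1 to 3 and higher in sarcoma 4 (log2 -0.14 ± 0.14, edgeR adjusted p = 0.555).

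Markers of mesenchymal progenitors were lower in sum, but not one by one. The summed level of their 10 markers was 3857, 10075, 12531 and 1325 CPM in non-cycling and 2432, 7743, 3950 and 1216 in cycling cells of sarcomas 1 to 4. Of the 8 tested, 2 fell, Gsn and Ly6a. The counts of called markers in this paragraph stand beside 7.59% rises and 5.69% falls over all tested genes. Pdgfra and Lum were not called (log2 0.03 and -0.30, edgeR adjusted p = 0.967 and 0.209). Lum and Col3a1 were higher in cycling cells of sarcoma 4. The gap in the sum was widest in sarcoma 3, where Gsn went from 9542 to 1942 CPM, Cd34 from 124 to 9.48 and Clec3b from 6.7 to 0.474, while Pdgfra was at 328 and 330. In the other sums the defining markers Dpp4 and Clec3b were at or below 0.399 CPM, and Pi16 was at or below 11.7 in all of them. With cells holding any UMI of Pi16, Dpp4 or Clec3b left out, 948 genes rose and 716 fell, and with at least 5 UMIs of Gchfr required 952 rose and 683 fell. Among other cell types, 1 of 5 tested endothelial markers rose (Cdh5, log2 1.41), with summed levels of 225, 297, 13.6 and 4.16 CPM in non-cycling and 335, 291, 24.6 and 10.8 in cycling cells. None of 5 mural markers was called, 2 of 4 tenocyte markers fell, the 11 haematopoietic markers summed to at most 20.4 CPM, and the myogenic genes Pax7 and Myf5 were at 0. The part of cells of other kinds in the falls was not tested otherwise.

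Of 13 genes that set these sarcomas apart from muscle, chosen on these same libraries, 1 rose (Ccnd1) and 1 fell (Nr4a2). These counts are close to the shares over all tested genes, 7.59% rises and 5.69% falls. The polycomb and SWI/SNF counts below stand beside the same shares. Without sarcoma 1 or sarcoma 2 none of them fell, and without sarcoma 2 or sarcoma 4 none rose. Spp1, which encodes osteopontin, gave -0.02 ± 0.24, the neurofilament gene Nefl 0.37 ± 0.15 and the prohormone convertase gene Pcsk1 -0.49 ± 0.18 (edgeR adjusted p = 0.979, 0.131 and 0.112). The reporter tdTomato was at 720.3, 353, 1224 and 264 CPM in non-cycling and 722, 355, 1062 and 325 in cycling cells (log2 -0.04 ± 0.08, edgeR adjusted p = 0.822), and Hic1 gave 0.12 ± 0.13 (edgeR adjusted p = 0.804). Of 22 polycomb genes, which silence chromatin and oppose SWI/SNF, 3 rose and 2 fell. Ezh2, the methyltransferase, was at 19.9, 17.7, 22.2 and 12.8 CPM in non-cycling and 76.5, 60.6, 59.2 and 62.8 in cycling cells (log2 1.80 ± 0.11, edgeR adjusted p = 2.33e-05), while its relative Ezh1 fell by 0.61. Phf19 (4.20) and Suz12 (0.52), also of the complex PRC2, were the other rises and Phf1 (-0.72) the other fall. Without sarcoma 1 or sarcoma 4 no polycomb gene fell, without sarcoma 2 there was 1 fall, and without sarcoma 3 there were 5 rises. Of 23 tested SWI/SNF genes other than Smarcb1, 3 rose by at most 0.50 (Actl6a, Brd9 and Smarcc1). None of them rose without sarcoma 1, and 1 did without sarcoma 2 or sarcoma 3.

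Cycling cells were not alike among themselves. Cells with 2 or more thinned UMIs of the mitotic genes Ccnb1, Cdc20 and Plk1 were 51.2%, 37.3%, 37.9% and 49.2% of cycling cells in sarcomas 1 to 4, and cells with 0 were 32.0%, 51.2%, 50.2% and 36.8%. The kinetochore list summed to 3196, 3463, 3581 and 3586 CPM in the first kind and to 1089, 635, 717 and 530.4 in the second, against 339, 262, 296 and 219 in non-cycling cells. Cells without those mitotic transcripts still held 523, 253, 546 and 434 CPM of the helicase genes Mcm2 to Mcm7, against 119, 105, 116 and 112 in non-cycling cells. Cells with 2 or more mitotic UMIs held 261, 263, 418 and 647 CPM of these genes, less than cells with 0 in sarcomas 1 and 3 and more in sarcomas 2 and 4.

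The pair of defining genes split the same way. Both were found in 77.2%, 63.9%, 69.7% and 53.2% of cycling cells, Mki67 without Top2a in 11.8%, 21.5%, 13.3% and 8.0%, and Top2a without Mki67 in 14.6%, 17.1% and 38.8% of those in sarcomas 2 to 4. Cells with Mki67 alone held little of Mcm2 to Mcm7 (134, 116, 139 and 175 CPM) but 1526, 869, 1893 and 1525 CPM of kinetochore genes. Cells with Top2a alone were the reverse, with 478, 281, 364 and 318 CPM of Mcm2 to Mcm7 and 863, 425, 425 and 342 of kinetochore genes. In sarcoma 4 this second kind was more frequent than in the other sarcomas. The smallest of these groups held 20 cells (Mki67 alone, sarcoma 4), and no test was made, since the groups are cut from the genes of the rule.

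Replication and kinetochore genes climbed step by step with the number of Mki67 and Top2a UMIs before thinning in all 4 sarcomas. Just outside the threshold, cells with 1 UMI held 357 ± 99.5 CPM of kinetochore genes, and just inside it, cells with 2 UMIs held 593 ± 234 (SD, n = 4), against 279 ± 51.3 with 0 and 3604 ± 657 with 10 or more. Replication genes summed to 704 ± 97.0, 863 ± 103, 1097 ± 242 and 3013 ± 741 CPM in the same 4 bins. Cells near the threshold were thus closer to non-cycling cells than to cells with many UMIs. The next lists were lower past the threshold, but not stepwise in each sarcoma: in sarcoma 4 the quiescence list was at 3500 CPM with 5 to 9 UMIs and at 4141 with 10 or more. Immediate-early and heat-shock genes went on average from 7451 ± 1232 with 0 UMIs through 6632 ± 1158.5 with 1 to 5373 ± 1214.5 with 10 or more, and quiescence genes from 5393 ± 579 through 4859 ± 379 to 3872 ± 305.

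**Figure D5:**
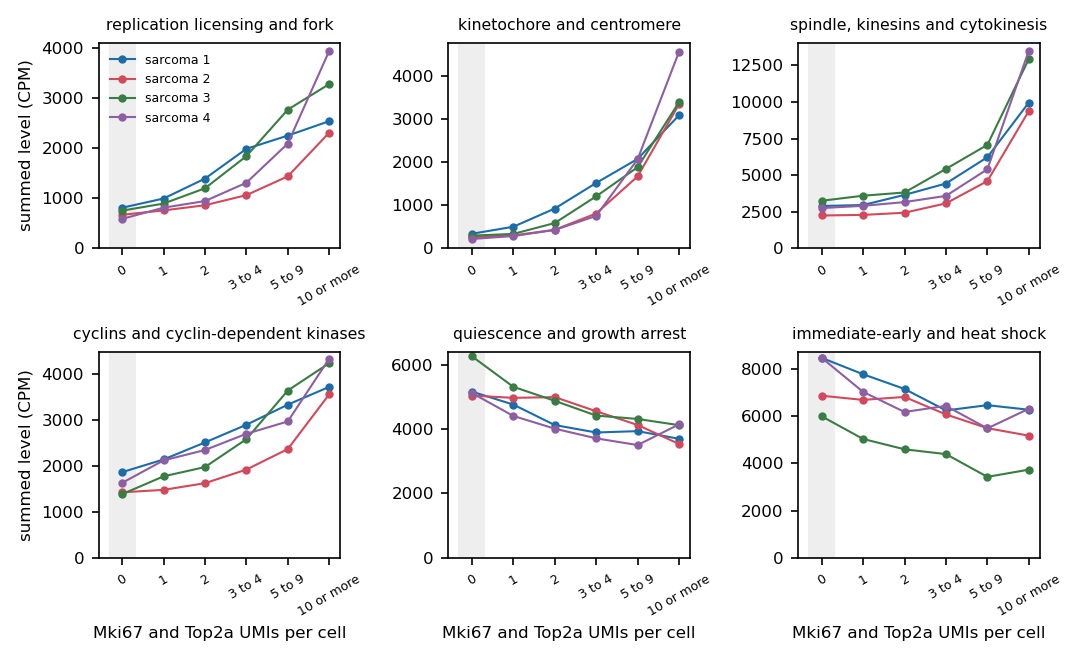
Summed levels in CPM (vertical axes) of 6 gene lists in sarcoma cells thinned to 10000 UMIs, with 1 line per sarcoma. The horizontal axis is the number of Mki67 and Top2a UMIs per cell before thinning, and the non-cycling bin is shaded. Replication, kinetochore, spindle and cyclin lists climb in all 4 sarcomas, as for the kinetochore list (from 279 to 3604 CPM on average), and the quiescence and immediate-early lists are lower in the bins past the threshold than at 0.

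Promoters of the genes that rose were searched for the elements shown in capitals for Cdc20, Cdk1 and Mcm6, in RefSeq windows from 250 bases before to 50 after each start site, on both strands. A CHR was found in 47.3% of windows of genes that rose by more than 2 on the log2 scale (88 of 186 windows, from 167 of 233 genes with an entry), in 21.7% of those that rose by less, in 13.2% of those that fell and in 12.2% of those not called. Over the windows of all tested genes the share was 13.3%, and over all 32851 RefSeq windows 19.2%. CCAAT boxes were in 61.8% of windows of the strongly rising genes against 37.8% of tested genes. E2F motifs were in 13.4% and 13.0% of windows of genes that rose by more and by less than 2, in 1.84% of those that fell and in 3.96% of tested genes.

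Shares also differed between lists. A CHR was in 73.0% of the 37 windows of spindle, kinesin and cytokinesis genes, 43.3% of the 30 of kinetochore genes and 24.4% of the 41 of replication genes. E2F motifs were in 8.11%, 10.0% and 31.7% of the same windows. Other lists had both or neither: condensin and cohesin genes held a CHR in 53.3% and an E2F motif in 40.0% of 15 windows, and nucleotide supply genes held them in 10.0% and 5.0% of 20. Matches are letters in a window and not sites shown to be bound. None of the replication-dependent histone genes had an entry, and the windows of 1 gene can overlap.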

How the data were processed

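The deposited values are raw UMI counts per gene and barcode. The authors made them with mm10 as the genome, per the submitters' processing notes, in Cell Ranger (version 6.0.1 per the file headers). The chemistry was 10x 3′ v2, per the labels. Libraries held 64061069 UMIs in muscle and 151903246 to 213271163 in the sarcomas, and no pair shared more than 22 barcodes. The members and lists were chosen with earlier results of these data known.

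Each cell was thinned at random to 10000 UMIs with Python 3.11.15 and numpy 2.4.6, shallower cells were left out, and counts were summed per library and class. Sums were tested with edgeR 4.0.16 (R 4.3.3): TMM scaling, filterByExpr, library as a block, 3 residual degrees of freedom, Benjamini-Hochberg adjustment over all tested genes. Same-library sums come from the same sample, and their deviations from the class means correlated at 0.80 to 0.93. The fit was tested on simulated data. Among the alternatives, the stricter Gchfr minimum and the removal of cells with Pi16, Dpp4 or Clec3b were chosen after seeing the data, and the others included DESeq2 1.42.0 and limma-voom 3.58.1. Doublets were not removed: Scrublet (scanpy 1.11.5) marked 5 cells of muscle and 0, 2, 142 and 0 of the sarcomas in order, so it has not worked in 4 of 5 libraries. Cells in the highest 6% of its scores made up 9.88%, 10.9%, 7.44% and 7.87% of cycling cells in sarcomas 1 to 4. In non-cycling cells their part was lower, at 4.77%, 4.16%, 5.34% and 6.06%. With these cells left out, 941 genes rose and 711 fell. Whether doublets differ between the classes was not tested otherwise.

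Named genes were the 12 largest rises and falls past the threshold with 50 CPM or more and 1 direction in all libraries, the 8 largest rises outside all lists, 2 to 4 members of each list by level or, for cell cycle lists, also by change, and 11 further genes listed by name. Exceptions of a list and other genes outside this rule (Cdk1, Cdc20, Ccna2, Rb1, Mcm6, Ensa, Pttg1, Ezh1 and the like) were chosen after their values were seen. Coordinates are from GENCODE M21 (GRCm38), matched by identifier for 27645 of 28001 features, and promoters from RefSeq (GRCm38.p6).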

Additional observations from a re-analysis of the deposited data

Results flagged for a closer look

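In 6 of 144 groups of 4 library values examined, 1 library lay far from the other 3, and chance flags about 1 in 20 such groups. Sarcoma 4 was the outlying library for Ccnb1, with a log2 difference of 3.96 against 5.83 to 6.01 in the others, for Ccnd2, with 0.17 against -0.92 to -0.75, and for Tuba1a, with -0.018 against 0.33 to 0.37. For Ccnb1 the non-cycling cells of sarcoma 4 held 5.19 CPM against 1.13 to 1.71 in the others. Rangap1 rose by 1.46 in sarcoma 2 against 2.24 to 2.28 elsewhere, and Hic1 differed by 0.55 in sarcoma 3 against -0.07 to -0.02. 2700094K13Rik rose by 1.90 in sarcoma 1 against 1.74 to 1.76.

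Some cells outside the sarcoma class were past the threshold as well, counted only among those with a Smarcb1 UMI. Among the other kept cells with a Smarcb1 UMI, thinned to 10000 UMIs, 8.88%, 7.59% and 1.57% were past the threshold in sarcomas 1 to 3, above the 0.398% of muscle. Sarcoma 4, with 1 of 55 such cells, was not flagged because its interval overlapped that of muscle.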

How the results depend on the processing

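Against 946 rises and 709 falls, a test against a 1.5-fold change gave 380 and 34, and edgeR with no replicate block gave 255 and 0 (847 genes at an unadjusted p under 0.05). The block pairs the 2 sums of a library, and without it no fall was called. The cause was not tested. Library size scaling left 452 falls, and no filter on low counts gave 1424. Leaving out 1 sarcoma gave 509 to 861 rises and 136 to 544 falls, lowest without sarcoma 1. The mean share of cycling cells was 6.14% at 5000 UMIs per cell, 9.03% with a threshold of 4 UMIs and 11.6% to 16.4% with 1 sarcoma left out. The other alternatives moved the counts by less than 1.5 times, DESeq2 to 985 and 783 and limma-voom to 1115 and 779. Of 81 called genes among 109 named, 47 were called under all 24 alternatives that tested them, and no called gene reversed. Of 2616 pairs of gene and alternative, 105 lost and 44 gained a call. With 211 and 250 deep cycling cells, sarcomas 3 and 4 limit genes of low level.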
